A study of Mus musculus with 6 samples.

Results

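The classical protein tyrosine phosphatases are the enzymes that remove phosphate from tyrosine through a shared catalytic domain, and mouse genes name them Ptpr (receptor type, with a transmembrane segment) or Ptpn (non-receptor type, inside the cell). Members were taken from the annotation of the array platform: every gene whose symbol stood alone for a probe set and read Ptpn with a number, or Ptpr with a letter and at most 1 digit. This gave 34 genes of 18193 named genes, 18 of receptor type and 16 of non-receptor type. Where a gene had several probe sets, the one of highest mean over all 6 arrays stood for it. Ptpn7, Ptprh, Ptprq and Ptprt, which the same name rule finds in the RefSeq gene table, are not analysed here.

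Haematopoietic stem cells (HSCs) were sorted from mouse bone marrow in 2 groups of 3 samples. Label-retaining cells (LRC) were GFP-positive and non-LRC were GFP-negative, both after 170 days of doxycycline and both from a gate that took cells with Sca1, cKit and CD150 and without CD34, CD48 or lineage markers. All mice carried the same transgenes, SCL-tTA and H2B-GFP: the tTA transactivator is expressed from the endogenous Scl locus and drives a histone H2B-GFP fusion until doxycycline stops it, after which each division dilutes the label. Scl is active in blood stem and progenitor cells, which limits where the label is made. The labels call the samples independent biological replicates; age and the number of mice per sample are not given in the sources used here. Each sample was hybridized to 1 array, and its values are on a log2 scale, 1 for each probe set.

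Tyrosine phosphorylation is set by kinases and phosphatases acting against each other. In blood cells, CD45 (Ptprc) keeps Src family kinases ready by removing an inhibitory phosphate, SHP-1 (Ptpn6) damps cytokine and immune receptors, SHP-2 (Ptpn11) carries growth factor signals from receptors such as Kit towards Ras, and PTP1B (Ptpn1) and TC-PTP (Ptpn2) act on JAK kinases. Receptor types also sense the outside of the cell: PTPsigma (Ptprs) binds heparan and chondroitin sulphate, and Ptprz1 binds pleiotrophin.

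The promoter windows of the 5 members with the smallest p-values are shown because these genes stand first in the ranking of the differences described below. Each runs from 250 bases before to 50 after an annotated start, on the gene's strand, from RefSeq on GRCm38.p6, and 29 of the 34 members had such a window. Where a gene had several starts, the most upstream one is given. The windows are chr4:57301788-57302087 on the minus strand for Ptpn3, chr17:56476431-56476730 on the minus strand for Ptprs and chr7:135537574-135537873 on the plus strand for Ptpre. Those of Ptprk and Ptprj are chr10:28074570-28074869 on the plus strand and chr2:90580546-90580845 on the minus strand. Capitals mark matches, on either strand, to the GC box (GGGCGG), an ETS core (CGGAAG) or a GATA motif (AGATAA).
Ptpn3: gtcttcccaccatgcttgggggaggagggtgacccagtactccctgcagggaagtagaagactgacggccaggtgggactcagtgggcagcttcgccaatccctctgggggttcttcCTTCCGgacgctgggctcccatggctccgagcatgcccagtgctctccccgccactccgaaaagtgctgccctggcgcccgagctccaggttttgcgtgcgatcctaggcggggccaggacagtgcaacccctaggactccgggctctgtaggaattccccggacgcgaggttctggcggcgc
Ptprs: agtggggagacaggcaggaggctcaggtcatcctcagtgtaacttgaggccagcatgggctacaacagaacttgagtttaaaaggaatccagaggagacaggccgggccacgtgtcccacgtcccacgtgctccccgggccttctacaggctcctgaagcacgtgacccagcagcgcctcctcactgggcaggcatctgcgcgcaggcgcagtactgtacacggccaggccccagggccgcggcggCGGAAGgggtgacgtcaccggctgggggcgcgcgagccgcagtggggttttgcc
Ptpre: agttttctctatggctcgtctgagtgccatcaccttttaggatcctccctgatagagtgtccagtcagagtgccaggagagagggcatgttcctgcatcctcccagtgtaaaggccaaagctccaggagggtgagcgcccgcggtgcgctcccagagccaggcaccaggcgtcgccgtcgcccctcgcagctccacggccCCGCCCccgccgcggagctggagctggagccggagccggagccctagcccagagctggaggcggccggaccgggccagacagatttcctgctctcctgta
Ptprk: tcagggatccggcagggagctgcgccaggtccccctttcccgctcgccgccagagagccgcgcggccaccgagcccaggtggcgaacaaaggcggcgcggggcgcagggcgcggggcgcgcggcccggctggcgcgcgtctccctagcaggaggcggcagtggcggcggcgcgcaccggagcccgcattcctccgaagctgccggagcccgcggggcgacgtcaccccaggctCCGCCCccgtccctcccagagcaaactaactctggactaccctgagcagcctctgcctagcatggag
Ptprj: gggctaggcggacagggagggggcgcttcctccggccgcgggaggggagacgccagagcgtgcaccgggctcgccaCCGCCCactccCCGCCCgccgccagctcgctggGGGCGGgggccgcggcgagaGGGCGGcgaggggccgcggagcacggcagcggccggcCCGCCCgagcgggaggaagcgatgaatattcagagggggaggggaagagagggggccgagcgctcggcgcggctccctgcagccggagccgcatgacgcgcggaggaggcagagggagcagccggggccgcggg
The GC box and the ETS core can share bases, but each of these windows held matches to 1 motif only. The Ptprj window held 5 GC boxes, those of Ptpre and Ptprk held 1 each, and those of Ptpn3 and Ptprs held 1 ETS core each. None of the 5 held the GATA motif. Over all 32851 windows the GC box was found in 35.7%, the ETS core in 16.9% and the GATA motif in 11.2%. Over the 42 windows of the 29 members the shares were 52.4%, 16.7% and 9.52%.

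Array medians lay between 4.33 and 4.39. LRC replicate 1 correlated least with the other arrays across probe sets (0.901 to 0.919), and it held the highest or the lowest value of 16 of the 34 members. Each of the other arrays did so for 7 to 14 members. The spiked-in hybridization controls averaged 11.24, 10.60 and 11.02 in LRC, against 10.70, 10.60 and 10.58 in non-LRC. LRC replicates 1 and 3 thus lay above every non-LRC array. The level of the controls is therefore partly confounded with the group, which limits the fits below that use it as a covariate. Kit, which the gate required, had means of 9.07 ± 0.07 for LRC arrays and 9.05 ± 0.06 for non-LRC arrays (SD over 3 arrays). Cd48, excluded by the gate, was low on every array (2.34 to 3.27). Cd34, also excluded, was at 2.52, 6.97 and 5.10 in LRC, against 7.43, 6.60 and 5.62 in non-LRC. Its RNA was thus above the array median on every array but LRC replicate 1. The gate sorts on surface protein and the arrays read RNA, so these values do not decide whether the gate held. The granulocyte and monocyte markers averaged 5.34 to 6.08 in LRC arrays and 5.70 to 6.61 in non-LRC arrays, and the erythroid markers 3.61 to 4.18 in LRC and 3.50 to 5.24 in non-LRC, both highest on non-LRC replicate 1. Megakaryocyte markers averaged 5.41 to 5.89 in LRC and 5.70 to 6.75 in non-LRC, and stromal markers 4.02 to 4.35 in LRC and 3.94 to 4.30 in non-LRC. Single genes of these lists were less even. The stromal gene Col1a2 read 6.76 on LRC replicate 2, 6.74 on non-LRC replicate 2 and at most 3.96 elsewhere. Mpo, of the granulocyte list, read 4.03 on LRC replicate 1 and at least 7.57 elsewhere. CD150 (Slamf1), which the gate required, read 6.24, 7.76 and 8.83 in LRC, against 7.20, 8.26 and 8.48 in non-LRC. A list of 8 gate and stem cell genes, which adds Hlf, Mecom, Procr and Tek to Kit, Slamf1 and the excluded Cd34 and Cd48, averaged 7.19 to 8.17 in LRC and 7.90 to 8.15 in non-LRC.

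No phosphatase gene passed the threshold of an adjusted p of 0.05. Limma called 0 of 34 members, and 0% of all genes, and the smallest adjusted p of a member was 0.998. At an unadjusted p under 0.05 there was 1 member, the non-receptor phosphatase Ptpn3, higher in LRC, where 3.75% of all genes passed that rule, 1.73% higher and 2.02% lower. The groups did not overlap for 3 members, all higher in LRC (Ptpn3, Ptprj and Ptprn2), beside 8.32% of all genes, 4.71% higher and 3.62% lower. These counts lie near the shares of all genes. With 3 arrays a group, the 95% interval of the difference lay within 1 log2 unit of no change for 16 members and reached beyond it for the other 18. In sorted populations, fewer cells expressing a gene and less RNA per cell cannot be told apart.

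Receptor and non-receptor genes did not part by direction. Of the 18 receptor-type genes, 9 had a higher mean in LRC and 9 a lower one, with a median difference of 0.01 on the log2 scale. Of the 16 non-receptor genes, 10 had a higher mean and 6 a lower one, with a median of 0.06. Over all genes 54.9% had a higher mean and the median difference was 0.03. The median size of the difference, whatever its sign, was 0.21 for receptor and 0.18 for non-receptor genes, beside 0.20 for all genes. Array by array, the mean value over the 18 receptor genes was 5.07, 4.85 and 4.87 in LRC, against 5.12, 4.93 and 4.94 in non-LRC. Over the 16 non-receptor genes it was 6.17, 6.38 and 6.28 in LRC, against 5.90, 6.35 and 6.21 in non-LRC. The ranges of the 2 groups overlapped in both classes, and the lowest non-receptor mean belonged to non-LRC replicate 1, the array where 6 of those 16 genes had their lowest value.

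**Figure D1:**
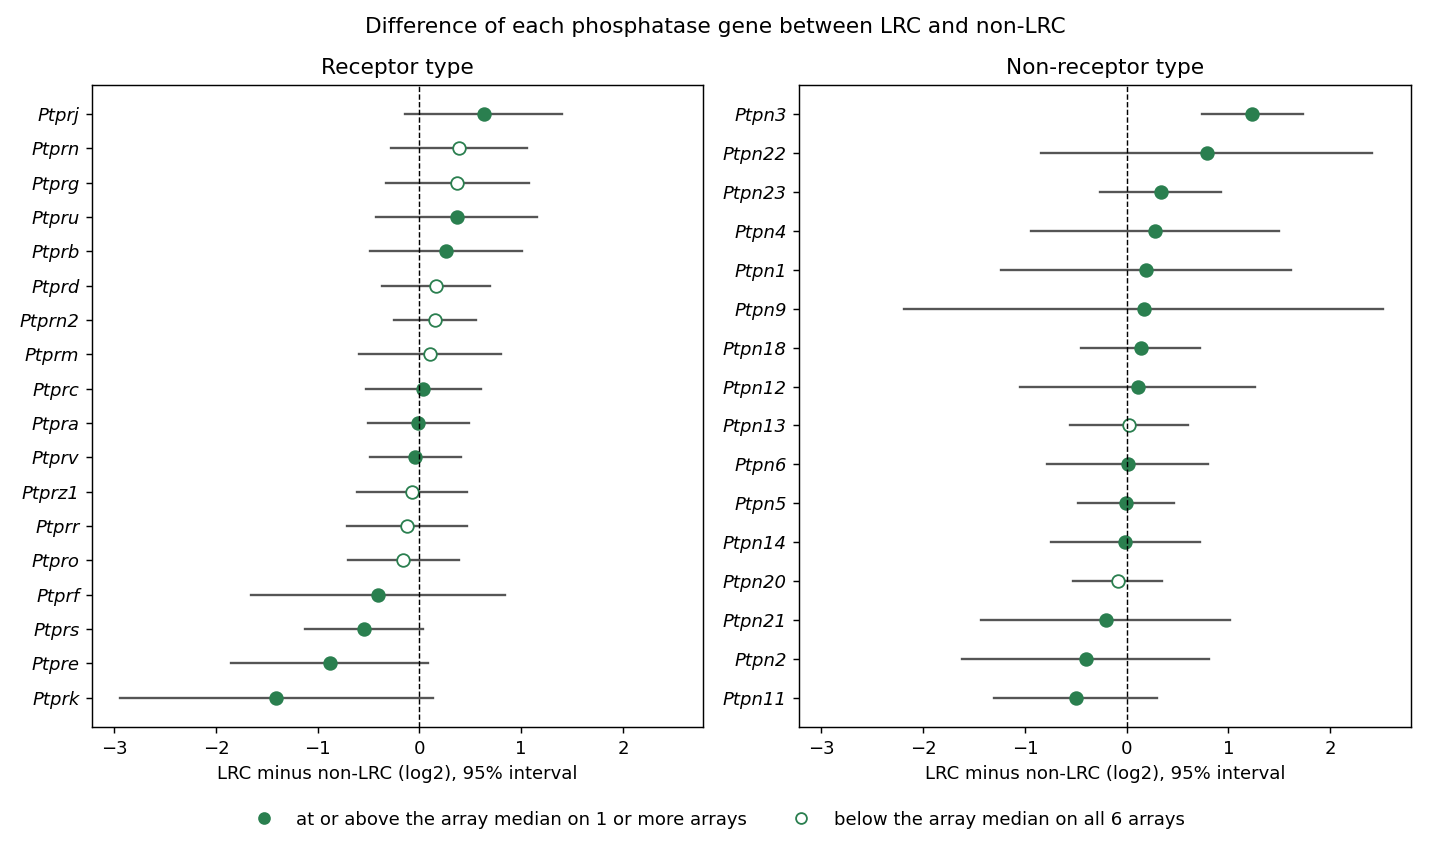
Difference between LRC and non-LRC (log2, x axis) for each of the 18 receptor-type genes (left) and 16 non-receptor genes (right), with limma's 95% interval. Open points are genes below the array median on all 6 arrays; the Ptpn3 interval, 0.74 to 1.73, is the 1 that leaves out zero.

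The classes differed in how many members were dim. Of the receptor genes 8 lay below the array median on all 6 arrays (Ptprd, Ptprg, Ptprm, Ptprn, Ptprn2, Ptpro, Ptprr and Ptprz1), and of the non-receptor genes 2 did (Ptpn13 and Ptpn20). A filter at the 40th percentile of mean value kept 25 of the 34. The differences of the 10 dim genes lay between -0.16 and 0.39.

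Ptpn3 (PTPH1), a cytosolic phosphatase with FERM and PDZ domains that tie it to membrane proteins, had the smallest p of the family. It stood at 5.31, 4.91 and 5.11 in LRC, against 3.84, 3.71 and 4.08 in non-LRC. Every LRC array lay above every non-LRC array, and the gap between the groups was wider than the spread within either. All non-LRC values lay below the array medians of 4.33 to 4.39, and all LRC values above them, so the gene was dim in non-LRC. The difference was 1.23 (SE 0.21), a 2.35-fold higher level, with a 95% interval of 0.74 to 1.73 and an adjusted limma p of 0.998. Omitting 1 array at a time moved it between 1.13 and 1.33, and omitting LRC replicates 1 and 3 together gave 1.03. The gene has 1 probe set, so no second one can be set beside it. Ptpn4, its closest relative, differed by 0.28 (SE 0.51), with both of its probe sets higher.

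**Figure D2:**
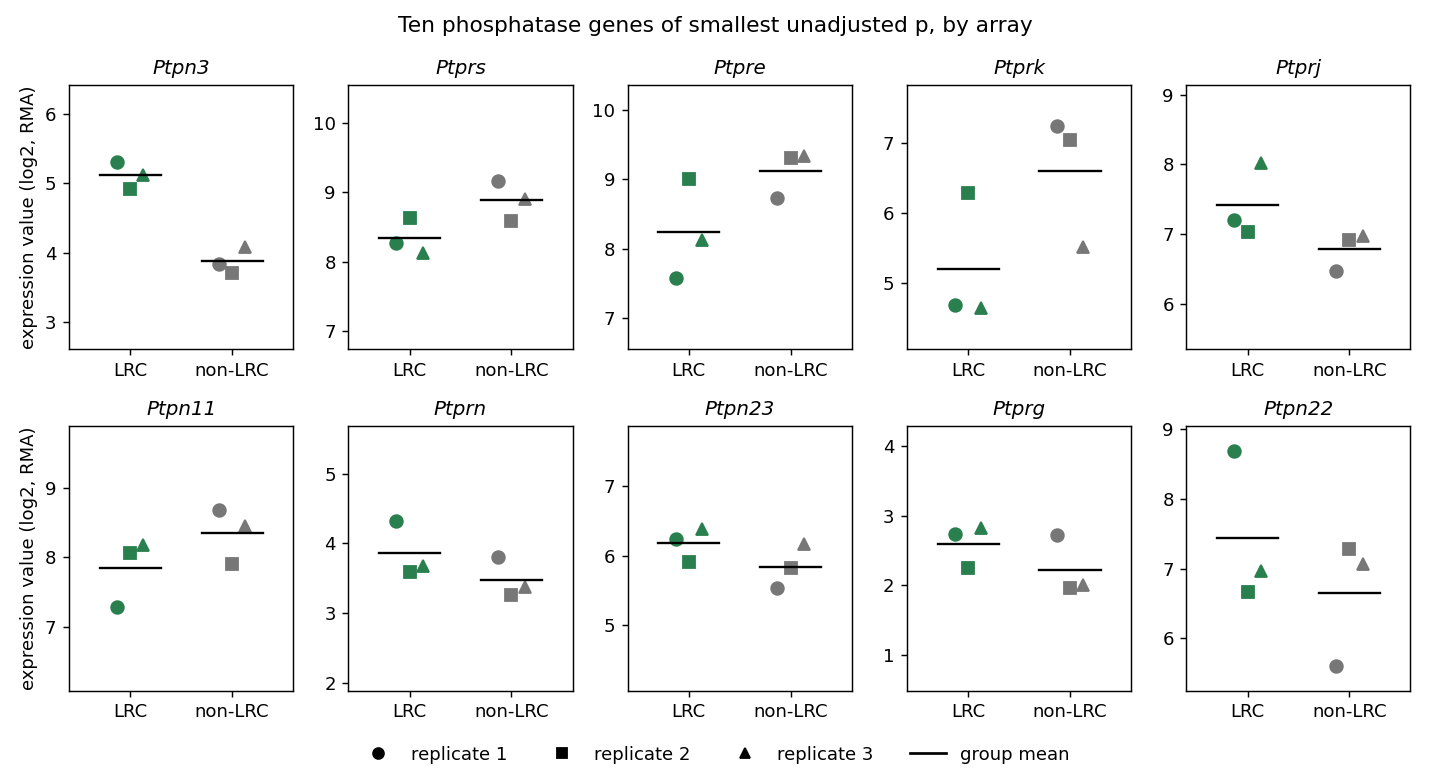
Expression values (log2, y axis, each panel spanning the same number of log2 units) of the 10 phosphatase genes of smallest unadjusted p on each array, LRC left and non-LRC right. Symbols give the replicate and bars the group mean; Ptpn3 and Ptprj are separated between the groups, and the other 8 overlap.

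Ptprj (CD148, or DEP-1), a receptor with fibronectin repeats that acts on Src family kinases in leukocytes and platelets, was at 7.19, 7.02 and 8.02 in LRC, against 6.46, 6.91 and 6.97 in non-LRC. The groups were separate by a small margin, between LRC replicate 2 and non-LRC replicate 3. The difference was 0.63 (SE 0.32, interval -0.14 to 1.40), or 0.33 without LRC replicate 3. On a second probe set LRC replicates 1 and 3 both read 8.0 and LRC replicate 2 read 7.15, against 4.74, 6.73 and 6.32 in non-LRC. Here too every LRC array was above every non-LRC array, with a difference of 1.79 (SE 0.56, interval 0.44 to 3.13), and non-LRC replicate 1 was the farthest from the rest. The 2 other probe sets of Ptprj differed by -0.05 (SE 0.40) and -0.10 (SE 0.75), so the gene's probe sets differ in sign. Their intervals, -1.03 to 0.93 and -1.92 to 1.72, include 0.63 but not 1.79. Its promoter window is the one with 5 GC boxes above.

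Ptprs, Ptpre and Ptprk had the lowest differences among the receptor types, and none passed. Ptprs (PTPsigma), the receptor for sulphated proteoglycans, was at 8.27, 8.63 and 8.12 in LRC, against 9.16, 8.59 and 8.90 in non-LRC. The groups met at a single point, where LRC replicate 2 lay just above non-LRC replicate 2. Its difference was -0.54 (SE 0.24, interval -1.13 to 0.04), and all 3 other probe sets had the same sign, at -0.33 to -0.14. Leaving out single arrays gave -0.69 to -0.41.

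Ptpre (PTPepsilon), which encodes a receptor and a cytosolic form, read 7.58, 9.01 and 8.13 in LRC, against 8.74, 9.30 and 9.33 in non-LRC. LRC replicates 1 and 3 were below all non-LRC arrays and LRC replicate 2 was within them. The difference of -0.88 (SE 0.40, interval -1.85 to 0.08) was -0.55 without LRC replicate 1 and -1.27 without LRC replicate 2. It was -0.12 with the level of the hybridization controls as a covariate, which is partly confounded with the group. The other probe set of Ptpre went the other way, at 8.07, 7.63 and 7.63 in LRC, against 6.60, 7.49 and 7.76 in non-LRC. That probe set differed by 0.50 (SE 0.34), and the mean of both by -0.19. Ptpre has 3 annotated promoter windows; which transcripts each probe set reads was not tested.

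Ptprk, a receptor of cell contacts with a MAM domain, spread widely in both groups: 4.68, 6.29 and 4.63 in LRC, against 7.25, 7.05 and 5.51 in non-LRC. LRC replicate 2 lay above non-LRC replicate 3, so the groups overlapped. The difference of -1.40 (SE 0.64, interval -2.94 to 0.13) was -1.95 without LRC replicate 2 or without non-LRC replicate 3. With the hybridization controls as a covariate it was -0.69. Among the 6 further probe sets of the gene, 2 were also lower in LRC, at -0.55 (SE 1.18) and -0.60 (SE 0.40). The others differed by 0.03 to 0.19. They lay below the array median on every array, as did the probe set at -0.60. Its relatives Ptpru and Ptprm differed by 0.36 (SE 0.33) and 0.10 (SE 0.29).

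For all remaining receptor types the interval of the difference included zero, and several of these genes were dim. CD45 (Ptprc), the pan-leukocyte phosphatase, was at 9.47, 9.20 and 8.86 in LRC, against 8.94, 9.34 and 9.14 in non-LRC. The values interleave, and the difference of 0.04 had an interval of -0.53 to 0.60. Ptpra, which activates Src, differed by -0.01 (interval -0.50 to 0.48), although a second probe set differed by 1.15 (SE 0.70) with LRC replicate 3 at 8.58 and non-LRC replicate 1 at 5.03. Ptprf (LAR) and Ptprd, the relatives of Ptprs, differed by -0.41 (SE 0.52) and 0.17 (SE 0.22). The 2 other probe sets of Ptprf went the other way, at 0.40 (SE 0.30) and 1.12 (SE 1.24).

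Ptprz1, the pleiotrophin receptor, was at 2.41, 1.79 and 2.15 in LRC, against 2.19, 2.06 and 2.31 in non-LRC, and all 3 of its probe sets lay below the array median on every array. The groups overlapped, and the difference was -0.07 (SE 0.22). Ptprg, which shares the carbonic anhydrase-like domain of Ptprz1, was at 2.73, 2.25 and 2.82 in LRC, against 2.72, 1.96 and 2.00 in non-LRC, a dim and overlapping pair of groups. Ptprn (IA-2), a catalytically inactive member of secretory granules, was at 4.32, 3.59 and 3.68 in LRC, against 3.80, 3.25 and 3.37 in non-LRC. LRC replicate 1 was the highest array, the groups overlapped and the difference was 0.39 (SE 0.28). Ptprn2, its relative in secretory granules, was at 2.86, 2.98 and 3.0 in LRC, against 2.78, 2.75 and 2.85 in non-LRC. The groups were separate by a narrow margin, with a difference of 0.16 (SE 0.17), and its second probe set differed by -0.11.

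Ptprb (VE-PTP), the partner of VE-cadherin and Tie2 in endothelium, differed by 0.26 (SE 0.31). It was near dim, at 4.38 on LRC replicate 1, just above that array's median of 4.37, and 3.35 to 4.05 elsewhere. Its 2 other probe sets lay below the array median on every array. The 8 endothelial markers averaged 5.31 to 5.67 in LRC arrays and 5.40 to 5.72 in non-LRC arrays, and they were not alike. VE-cadherin (Cdh5) was at most 3.52 and Plvap at most 3.50, whereas Tie1 read 7.0 to 7.93, Egfl7 7.50 to 8.07 and Esam 6.12 to 7.50 over the 6 arrays. Emcn, Pecam1 and Kdr lay between 3.41 and 6.42. Tie2 (Tek) read 3.85, 7.26 and 4.53 in LRC, against 5.77, 7.52 and 6.83 in non-LRC, overlapping groups with a difference of -1.49 (SE 0.94). The part of endothelial cells in the Ptprb values was not tested. Ptpro (GLEPP1) of podocytes differed by -0.16 (SE 0.22), and Ptprr, which binds MAP kinases, by -0.12 (SE 0.24). Ptprv, listed as a transcribed pseudogene in the RefSeq table, differed by -0.04 (SE 0.19).

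The SHP phosphatases were measured on all arrays above the array median. SHP-2 (Ptpn11) was at 7.28, 8.06 and 8.18 in LRC, against 8.68, 7.90 and 8.45 in non-LRC. LRC replicate 1 was the lowest and the other arrays interleave. The difference of -0.50 (SE 0.33, interval -1.30 to 0.30) was -0.22 without LRC replicate 1, and 1 of 2 other probe sets had the same sign. SHP-1 (Ptpn6) was at 7.41, 7.63 and 7.48 in LRC, against 6.96, 8.15 and 7.38 in non-LRC. All 3 LRC values lay inside the non-LRC range, and the difference was 0.01 (interval -0.78 to 0.80).

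At their chosen probe sets, the JAK phosphatases varied widely within LRC. PTP1B (Ptpn1) was at 6.23, 8.37 and 7.63 in LRC, against 6.90, 7.89 and 6.87 in non-LRC. TC-PTP (Ptpn2) was at 6.71, 8.57 and 8.39 in LRC, against 8.15, 8.29 and 8.45 in non-LRC. In both, LRC replicate 1 was the lowest array and LRC replicate 2 the highest. Their differences of 0.19 (SE 0.59) and -0.40 (SE 0.50) were 0.78 and 0.19 without LRC replicate 1. With the hybridization controls as a covariate they were 1.22 and 0.44. A second probe set of each gene was more even within LRC. That of Ptpn1 read 6.53, 6.44 and 6.55 in LRC, against 5.61, 6.64 and 6.93 in non-LRC. That of Ptpn2 read 7.51, 7.81 and 7.53 in LRC, against 8.38, 7.53 and 7.60 in non-LRC. They differed by 0.12 (SE 0.36) and -0.22 (SE 0.28). Dimmer probe sets of Ptpn2 spanned 2.19 and 2.24 within LRC.

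Of the PEST-type phosphatases, Ptpn22, which restrains antigen receptor signalling in lymphocytes, was at 8.69, 6.67 and 6.96 in LRC, against 5.60, 7.28 and 7.07 in non-LRC. The highest and lowest arrays were replicate 1 of each group, and the other 4 lay between 6.67 and 7.28. The difference of 0.79 (SE 0.67) was 0.16 without LRC replicate 1 and 0.27 without non-LRC replicate 1. On LRC replicate 1 the early B cell gene Vpreb1 was also high, at 9.58, against at most 6.84 on the other arrays, while Cd79a, Pax5, Ms4a1 and Ebf1 were at most 4.33 on every array. Cd79b, of the same list, read 5.52, 6.44 and 6.83 in LRC, against 7.17, 6.05 and 6.82 in non-LRC, and was lowest on LRC replicate 1. The 6 measured B cell markers averaged 4.19 to 4.76 in LRC arrays, the highest on LRC replicate 1, and 4.26 to 4.34 in non-LRC arrays. The 7 T and NK cell markers averaged 3.28 to 3.66 in LRC and 3.24 to 3.79 in non-LRC, with Cd3e at 3.04 to 3.66 and Nkg7 at 5.93 on non-LRC replicate 1 and at most 3.87 elsewhere. The part of these cells in the Ptpn22 values was not tested.

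Ptpn12 (PTP-PEST), which acts on the adhesion adaptor p130Cas, differed by 0.11 (SE 0.48) at its chosen probe set. All 3 of its other probe sets were higher in LRC by larger amounts, at 0.52 to 0.88. One of them read 6.92, 6.76 and 7.17 in LRC, against 5.80, 5.95 and 6.47 in non-LRC, with no overlap and an interval of 0.28 to 1.47. Ptpn18 differed by 0.14 (SE 0.24).

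Among the other FERM-domain members, Ptpn14, a partner of the YAP coactivator, differed by -0.01 (SE 0.30) at its chosen probe set. Another probe set read 5.86, 5.74 and 5.83 in LRC, against 4.16, 5.01 and 5.29 in non-LRC, separate by 0.99 (SE 0.32, interval 0.22 to 1.75). The remaining probe set differed by 0.61 (SE 1.06). The interval of the chosen one, -0.75 to 0.72, overlapped that of the separated one. Ptpn21 differed by -0.21 (SE 0.51) and Ptpn13, a large multi-PDZ phosphatase, by 0.02 (SE 0.24). Another probe set of Ptpn21 went the other way, at 0.83 (SE 0.56), and the remaining one was lower, at -0.50 (SE 0.69).

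Ptpn23 (HD-PTP), which sorts receptors in endosomes, was at 6.24, 5.91 and 6.39 in LRC, against 5.54, 5.83 and 6.17 in non-LRC. The groups overlapped through non-LRC replicate 3, and the difference was 0.33 (SE 0.24). Ptpn9 (MEG2), a phosphatase of secretory vesicles with a Sec14 domain, had the widest interval of the 34 genes, -2.18 to 2.52. LRC replicate 3 and non-LRC replicate 1 were at 4.51 and 4.30, and the other 4 arrays were at 6.74 to 7.25. Ptpn5 (STEP), a brain phosphatase of MAP kinases, and Ptpn20 differed by -0.01 (SE 0.19) and -0.09 (SE 0.18).

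Probe sets of the same gene were compared over the whole family. The 34 genes had 86 probe sets, of which 4 were at an unadjusted p under 0.05, all higher in LRC, beside 3.71% of all probe sets, 1.74% higher and 1.97% lower. They belonged to Ptpn3, Ptprj, Ptpn12 and Ptpn14, and the smallest adjusted p was 0.998. Of the 25 genes with more than 1 probe set, all others had the sign of the chosen one in 7, some did in 8 and none did in 10. Agreement in sign was found for Ptprs, Ptprz1, Ptpru, Ptpn1, Ptpn4, Ptpn6 and Ptpn12.

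**Figure D3:**
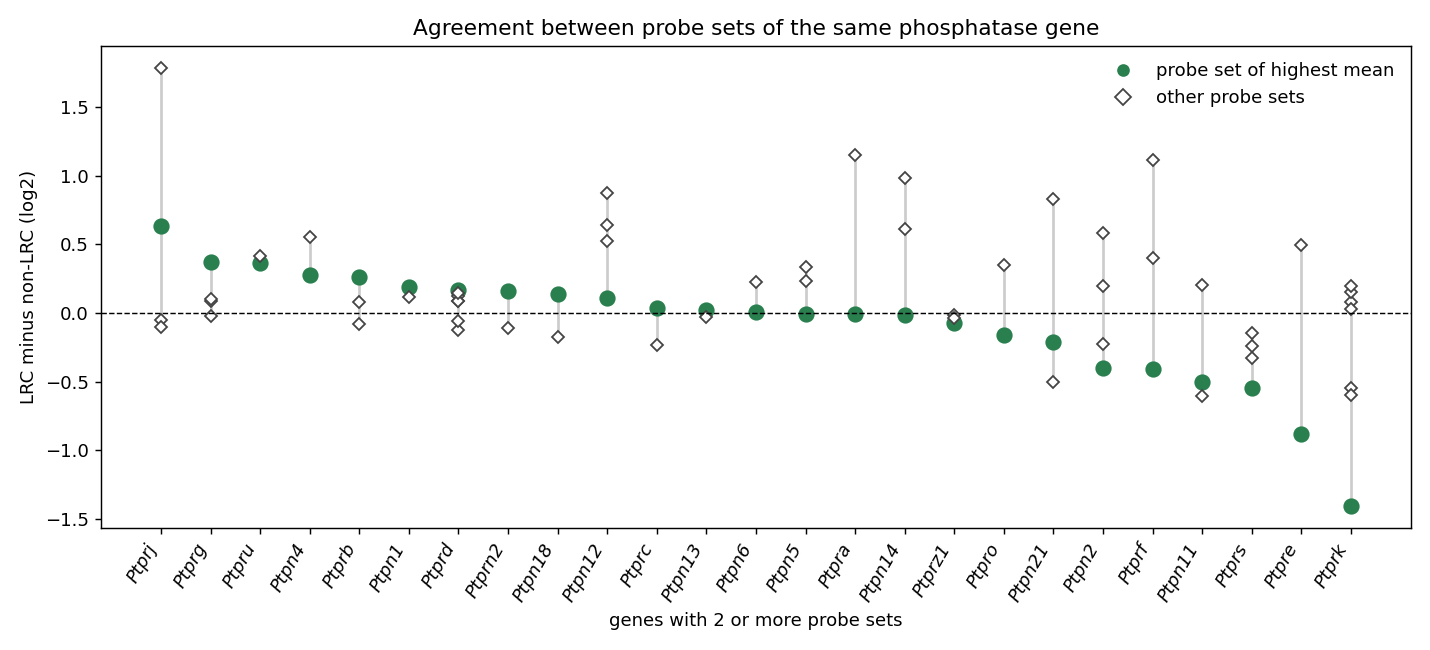
Difference between LRC and non-LRC (log2, y axis) of every probe set of the 25 phosphatase genes with more than 1, ordered by the chosen probe set (filled circle). Open diamonds are the other probe sets; those of Ptprj, Ptpre, Ptpra and Ptprf lie on both sides of zero or far apart.

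The sign of most members depended on how the arrays were used. Of the 34 genes, 12 kept their sign in every alternative tried, and 22 turned in at least 1 of up to 15. Those that kept it were Ptpn3, Ptpn11, Ptpn20, Ptpn22, Ptpn23, Ptpre, Ptprg, Ptprj, Ptprk, Ptprn, Ptprn2 and Ptprs. Ptpn3 was the 1 member at an unadjusted limma p under 0.05 in all 15. The Ptpn9 difference of 0.17 was -0.69 without non-LRC replicate 1 and 1.00 without LRC replicate 3.

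**Figure D4:**
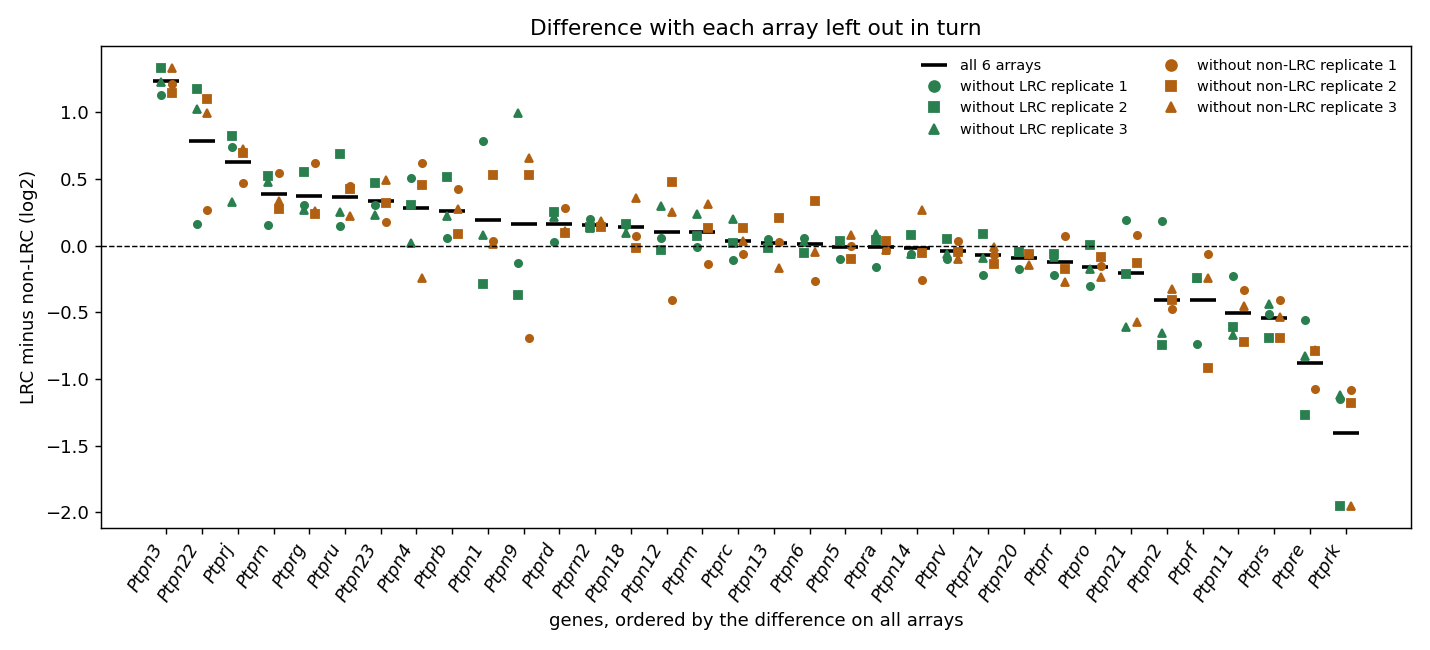
Difference between LRC and non-LRC (log2, y axis) of all 34 genes with all 6 arrays (black bars) and with each array left out in turn (symbols, green for an LRC array and orange for a non-LRC array). Ptpn3 stays between 1.13 and 1.33, whereas Ptpn9 moves between -0.69 and 1.00.

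Genes that work with these phosphatases were counted from lists of their substrates, partners and relatives. Of 10 measured Src family kinases and their regulators, 4 had a higher and 6 a lower mean in LRC, with a median difference of -0.04. Src itself, a substrate of Ptpra and other receptor types, was at 4.96, 4.65 and 5.45 in LRC, against 3.14, 3.82 and 3.82 in non-LRC. Its groups did not overlap and its other probe set had the same sign, with a difference of 1.42 (SE 0.31) and an adjusted limma p of 0.998. Csk, the kinase that places the inhibitory phosphate on Src, differed by 0.55 (SE 0.32).

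Of 17 adaptors and docking proteins of SHP-1 and SHP-2, 5 had a higher and 12 a lower mean, with a median of -0.22. The smallest p-values were those of Cd300a, an inhibitory receptor that recruits SHP-1, at -0.62 (SE 0.26), and Sos2, a Ras exchange factor, at -0.99 (SE 0.52). Of 12 kinases, receptors and STATs on which the family acts, 6 were higher and 6 lower, with a median of 0.09. Fgfr1, a growth factor receptor, was at 5.71, 6.52 and 5.48 in LRC, against 5.15, 4.54 and 4.42 in non-LRC. Its groups did not overlap, 1 of 2 other probe sets had the same sign, and it differed by 1.20 (SE 0.35). Stat6, a cytokine-activated transcription factor, differed by 0.50 (SE 0.25).

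Of 26 ligands and binding partners of receptor types, 14 were higher and 12 lower, with a median of 0.09, and 12 lay below the array median on every array. Sdc2, a heparan sulphate proteoglycan, was at 5.56, 6.65 and 5.16 in LRC, against 6.75, 7.01 and 6.88 in non-LRC. The groups did not overlap and all 3 other probe sets had the same sign, with a difference of -1.09 (SE 0.39). Lgals1, a galectin that binds CD45, differed by 0.83 (SE 0.41). Of 40 other tyrosine and dual-specificity phosphatases, 22 were higher and 18 lower, with a median of 0.05. Cdc25a, which activates cyclin-dependent kinases, was at 6.54, 6.33 and 5.86 in LRC, against 7.26, 7.23 and 7.03 in non-LRC. Its groups did not overlap, 1 of 2 other probe sets had the same sign, and it differed by -0.93 (SE 0.23). Eya2 differed by 0.45 (SE 0.20). None of the genes of these lists passed the adjusted threshold, and those at an unadjusted p under 0.05 were Src and Fgfr1, higher in LRC, and Sdc2 and Cdc25a, lower in LRC. These are 4 of 105 measured genes, or 3.81%, beside the 3.75% of all genes given above.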

How the data were processed

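RNA of sorted cells was amplified in 2 rounds and hybridized to Affymetrix arrays, per the labels' protocols. The authors summarised and normalized the arrays with RMA, per the submitters' processing notes, and deposited log2 expression values. RMA equalises the distribution between arrays, so a change in total RNA per cell cannot be seen. The table holds 45101 probe sets. After 64 controls were dropped, LRC was compared with non-LRC over the remaining 45037 by limma 3.58.1 (lmFit, then eBayes; R 4.3.3), with Benjamini-Hochberg adjustment over all of them. The script was tested on simulated data. The platform annotation gave 1 gene symbol for 34945 probe sets, several for 932 and none for 9160.

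The members and all gene lists were chosen with earlier results of these data known, so no list's direction is independent evidence. All members are accounted for. Values per array are given for the 10 members of smallest p and for Ptprc, Ptpn6, Ptpn11, Ptpn1, Ptpn2, Ptprs, Ptprj, Ptprz1, Ptpre and Ptpn22. Ptprn2, whose groups do not overlap, and the other probe sets shown were chosen after their values were seen. List genes are named where among the 2 of smallest p. Marker genes are named beside the member they touch or where the arrays are described. There, Col1a2 and Mpo were chosen after their values were seen, and other uneven genes are not named. Alternatives were another quantile normalization, median centring, a filter on dim probe sets, array weights, robust moderation with a trend, a block for the replicate number, the average of a gene's probe sets, the hybridization controls as a covariate, each array left out in turn, and LRC replicates 1 and 3 left out together. Whether each sample held 1 mouse or a pool is not given, and 3 arrays a group limit the precision.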

Additional observations from a re-analysis of the deposited data

How the results depend on the processing

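No member passed the adjusted threshold under any alternative or at an adjusted p of 0.1. The count at an unadjusted limma p under 0.05 was 1 with all 6 arrays (3.71% of all probe sets), 2 with array weights (Ptpn3 and Ptpre; 5.31%), and 1 to 5 when single arrays were left out. The 5 came without LRC replicate 2 (Ptpn3, Ptpre, Ptprk, Ptprs and Ptpru), where 7.11% of all probe sets passed, and leaving out non-LRC replicate 2 or 3 gave 2 (3.49% and 3.33%). The labels give same-numbered samples of the 2 groups nothing in common but the number. Their deviations from the group means correlated weakly but positively, at 0.0798, 0.141 and 0.0811. The closest pair of arrays was LRC replicate 2 and non-LRC replicate 2, with a correlation of 0.970 across probe sets. Whether same-numbered samples shared a sort or a batch was not tested. With the replicate block 3 members were at an unadjusted p under 0.05 (Ptpn3, Ptpre and Ptprk), beside 4.48% of all probe sets. The median difference of receptor-type genes was -0.19 with the hybridization controls as a covariate, -0.16 without LRC replicates 1 and 3 together, and -0.10 to 0.11 when single arrays were left out. That of non-receptor genes was -0.027 to 0.27, the highest without non-LRC replicate 2. The filter on dim probe sets left out 9 members, which have no value under it. The causes of these changes were not tested. After another quantile normalization the difference turned to -0.015 for Ptpn13, 0.014 for Ptpn14, 0.012 for Ptpra and 0.0079 for Ptprv. With array weights the difference turned to -0.20 for Ptpn12, 0.22 for Ptpn21, -0.078 for Ptpn6, -0.69 for Ptpn9, -0.11 for Ptprc and -0.10 for Ptprm. With the hybridization controls as a covariate the difference turned to 0.44 for Ptpn2, -0.24 for Ptprb, -0.018 for Ptprc, -0.079 for Ptprd and -0.22 for Ptpru. With the average of a gene's probe sets the difference turned to -0.0032 for Ptpn13, 0.53 for Ptpn14, -0.020 for Ptpn18, 0.038 for Ptpn2, 0.041 for Ptpn21, 0.19 for Ptpn5, 0.57 for Ptpra, -0.10 for Ptprc, 0.37 for Ptprf and 0.10 for Ptpro. Without LRC replicates 1 and 3 together, where the lone LRC array is assumed to vary like the others, the difference turned to 0.28 for Ptpn2, -0.24 for Ptprb, -0.013 for Ptprd and -0.29 for Ptpru. Leaving out single arrays gave ranges that crossed zero of -0.29 to 0.78 for Ptpn1, -0.41 to 0.47 for Ptpn12, -0.17 to 0.21 for Ptpn13, -0.26 to 0.27 for Ptpn14, -0.018 to 0.35 for Ptpn18, -0.74 to 0.19 for Ptpn2, -0.61 to 0.20 for Ptpn21, -0.24 to 0.62 for Ptpn4 and -0.10 to 0.077 for Ptpn5. They likewise ran from -0.26 to 0.34 for Ptpn6, -0.69 to 1.00 for Ptpn9, -0.16 to 0.089 for Ptpra, -0.11 to 0.20 for Ptprc, -0.14 to 0.31 for Ptprm, -0.30 to 0.0017 for Ptpro, -0.27 to 0.076 for Ptprr, -0.10 to 0.048 for Ptprv and -0.22 to 0.090 for Ptprz1.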

Other observations

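Several phosphatase genes had a wide range among samples of one group at the chosen probe set. Of the 34, 8 spanned more than 1 log2 unit within LRC and 10 did so within non-LRC, 13 in either. These were Ptpre, Ptprk, Ptpru and Ptprf among the receptor types, and Ptpn1, Ptpn2, Ptpn4, Ptpn6, Ptpn9, Ptpn12, Ptpn14, Ptpn21 and Ptpn22 among the non-receptor types. The share of all genes with such a range was not computed, so these counts are not read as a trait of the family. LRC replicate 1 held the highest value of 11 members and the lowest of 5. Non-LRC replicate 2 held the lowest of 9 members and the highest of 4. One probe set of Ptprf, the LAR phosphatase, read 7.53 on LRC replicate 3 and at most 3.45 on each of the other 5 arrays, and no other probe set of that gene was high on that array alone.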
